A study of Drosophila melanogaster with 288 samples.

Results

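The samples described here were 37 single-egg transcriptomes of Drosophila melanogaster labelled 23-24h, the oldest of 8 ages in a series of 288. Of 43 samples collected at that age, 37 passed quality control, a minimum of 300000 protein-coding counts and of 4500 genes detected. These 37 split into 23 that lay inside a small cluster of the series, whose samples do not follow the developmental trajectory, and 14 that lay outside it. All came from the strain labelled W1118, reared at room temperature, and each library sample was a whole egg taken by hand from plates after dechorionation in bleach. No treatment or genotype separated them, and sorting of eggs by fertilization or morphology is not given in the sources used here. The other samples used were the 25 inside the cluster at 2-3h and, as an alternative, the 10 inside at 5-6h. The cluster held 97 of the 250 samples of the series that passed quality control.

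A fly egg is laid with a store of maternal RNA and protein, made in the ovary by nurse cells. Egg activation completes meiosis and starts translation of stored messages whether or not a sperm has entered. In a fertilized egg, maternal transcripts are then cleared while the zygotic genome is switched on. By the end of embryogenesis the animal is a larva close to hatching, with working muscle, nervous system, gut and cuticle.

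The members were chosen by their expression values, over the protein-coding genes that passed a filter on low counts. Spearman correlations among all 250 samples, on quantile-normalized and library-corrected log2 cpm (counts scaled to the library total) of 9606 genes, were turned into distances and scaled to 2 dimensions, with Dimension 1 rising with age. A sample was inside where Dimension 2 was above 0 and Dimension 1 below -0.0554. Among the 23-24h samples, the highest Dimension 1 inside was -0.0942 and the lowest Dimension 2 inside was 0.0795, and the outside sample nearest to the limits lay at -0.0750 and -0.0253. At other ages samples lay closer to the limits. The 2-3h samples inside reached down to 0.00404 on Dimension 2, a 20-21h sample inside lay at 0.00237, an 8-9h sample inside at -0.0698 on Dimension 1, and a 20-21h sample outside at -0.0974 and -0.00982. Since the groups were set by levels of protein-coding genes, levels inside and outside are given as a description without a test. Non-coding genes, roX1 and roX2 among them, did not enter the scaling and are treated in the same way. Tests are kept for the age label within the cluster and the share of samples inside by age, since the rule used age only to set the direction of the dimensions. The library labels entered the correction and total counts the quality filter, so both are also given without a test.

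**Figure D1:**
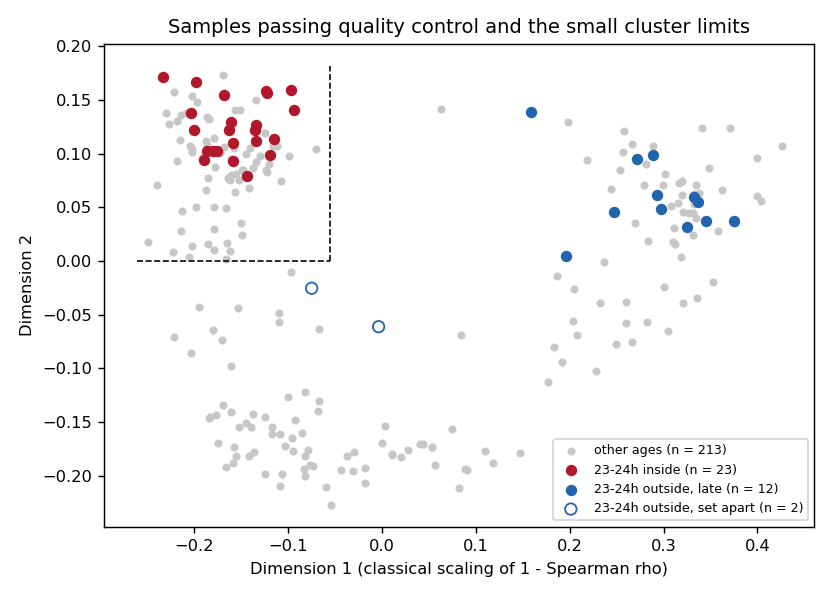
Each point is a sample, placed by classical scaling of 1 - Spearman rho, with Dimension 1 on the horizontal and Dimension 2 on the vertical axis; dashed lines mark the limits of the small cluster. The 23 inside samples of 23-24h (red) sit in the upper left corner, 12 outside samples (filled blue) lie on the far right at 0.159 or more, and 2 outside samples (open blue) lie between -0.0750 and -0.00367.

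The 2 open circles stand apart from the other outside samples and go against their age label. Both were most alike to the mean profile of 2-3h samples outside the cluster, with rho of 0.713 and 0.659. The other 12 were most alike to the 20-21h or 23-24h mean, with rho from 0.749 to 0.921. Results are therefore given for all 14 outside samples and for these 12, called the late samples. All 23 inside samples were most alike to the 2-3h mean among outside stages, with a median rho of 0.708 (0.643 to 0.791). Pairs of inside samples had a mean rho of 0.738 over 253 pairs and pairs of late samples 0.716 over 66 pairs. An inside and a late sample had a mean rho of 0.458 over 276 pairs. Inside samples of 23-24h and of 2-3h, though of labels almost a day apart, had a mean rho of 0.738 over 575 pairs. These correlations are across genes, the pairs share samples, and no test was run on them.

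Inside samples were frequent at this age. The cluster held 62.2% of the 23-24h samples (exact 95% interval 44.8 to 77.5, counting error only) and 69.4% of those of 2-3h. Of the 25 inside samples of 2-3h, 11 held zygotic transcripts, with the earliest zygotic genes summing to 449 to 1781 cpm. Inside samples of 23-24h reached at most 243 cpm, so the shares at these ages count unlike samples. From 14-15h to 20-21h the cluster held between 18.2% and 27.3%. By two-sided Fisher's exact tests, adjusted over 7 ages, the 23-24h share was higher than at 5-6h (29.4%, adjusted p = 0.0121), 8-9h (25%, adjusted p = 0.00479), 14-15h (19.2%, adjusted p = 0.00439), 17-18h (18.2%, adjusted p = 0.00439) and 20-21h (27.3%, adjusted p = 0.00753). For 1 outside sample titled 20-21h the stage label gives 17-18 hours. Counted there, it left the 23-24h share higher than at 17-18h (17.4%, adjusted p = 0.004) and 20-21h (28.1%, adjusted p = 0.0121), by the same Fisher's exact test. The 23-24h share was not separated from 2-3h (adjusted p = 0.624) or 11-12h (46.2%, adjusted p = 0.354). These Fisher's exact tests count each egg as independent, and the labels do not say which eggs shared a cage or collection plate. Within the library labelled E2 the difference from the 5 ages ranged from 13.6 to 34.1 percentage points. None passed the threshold, with Fisher's exact adjusted p from 0.557 to 0.778. Within E3, 17-18h held 1 sample, which lay outside, and the difference from it was 54.5. From the other ages it ranged from 25.97 to 34.55 within E3, and none passed, with adjusted p from 0.538 to 0.723.

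The 4 sequencing libraries contributed unequally. Inside samples came from E1_1 (1), E1_2 (3), E2 (13) and E3 (6), and outside samples from E2 (9) and E3 (5), so fold changes with library as a covariate rest on E2 and E3. Total counts ran from 323298 to 7393328 inside, with a median of 1362616, and from 467513 to 11331708 outside, with a median of 1850355. With totals centred on each library's mean, outside samples were deeper by 0.287 on the log10 scale, and by 0.370 without the 2 samples that stand apart. RNA had been diluted to a common concentration per plate before library preparation, so totals do not measure the RNA of an egg. The part of depth in the levels below was examined by thinning each sample to 300000 counts. No named gene over 4-fold different turned direction, a weak check for changes that large. Genes over 4-fold higher inside went from 1744 to 1136 and those higher outside from 3718 to 4203. The median log2 fold change of all genes went from 1.197 to 1.64.

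Over 9339 genes tested, 3718 (39.8%) were over 4-fold higher outside and 1744 (18.7%) over 4-fold higher inside. Against the late samples alone the counts were 3838 (41.2%) and 1871 (20.1%) of 9313. The median log2 fold change of all genes, outside minus inside, was 1.197, so a list is read against that value and not against 0. Fold changes used TMM scaling factors and the library covariate, and cpm values only the library total, so the direction of a gene can differ between them. This centre of all genes depends on the scaling. With median-of-ratios size factors it was 2.46, with 5131 genes over 4-fold higher outside and 787 inside, and on the quantile-normalized, library-corrected scale it was 0.22, with 1703 and 1580. A stricter count asked that the ranges of the groups not overlap at all. Then 28 genes (0.3%) lay wholly higher outside and 74 (0.792%) wholly higher inside, and with the late samples 431 (4.62%) and 119 (1.27%). All these percentages are descriptions of how the samples were chosen.

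Maternal regulators of the body axes and the germ plasm, the group that stores and places messages in the oocyte, were higher inside. Of 20 measured, 15 were over 4-fold higher inside and 1 outside, where 18.7% and 39.8% of all genes were. Their median log2 fold change was -2.99 (-3.25 against late samples) beside 1.197 for all genes. bcd (FBgn0000166, 3R:6755842-6759466 in BDGP6 as annotated by Ensembl 115), whose messenger RNA marks the anterior pole and whose protein forms the anterior gradient, had 57.4 cpm in the lowest inside sample, a median of 264 and 824.5 in the highest. Outside the same values were 1.10, 3.00 and 42.3, so the groups did not overlap, at a log2 fold change of -4.99. swa (FBgn0003655, X:6363418-6365708), needed to place the bcd message, ran from 200.2 through 462 to 1404 cpm inside and from 0.516 through 3.18 to 39 outside. Every inside sample was again above every outside sample. me31B, an RNA helicase that keeps stored messages silent, ran from 464.5 through 1130 to 2088 cpm inside and from 38.1 through 110 to 403 outside. smg, an RNA-binding protein that directs the destruction of maternal messages, had a median of 458 cpm inside and 12.99 outside, with overlapping ranges.

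The posterior determinants were at or near 0 in many samples. osk, which assembles the germ plasm, had a median of 8.60 cpm inside with a range from 0 to 289.6, and a median of 0.549 with a highest value of 13.3 outside. nos, the posterior determinant that acts through translational repression, was at a median of 0 in both groups, with highest values of 9.24 inside and 0.872 outside, and did not pass the filter of a mean of 1 cpm. At 2-3h inside the cluster osk had a median of 19.4 cpm and nos of 0. Follicle cell genes of the eggshell, a check for maternal tissue carried over with the egg, summed to at most 2.15 cpm in any inside sample and none was tested.

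Genes of egg activation, meiosis and the early cell cycle formed the list with the lowest median. Of 18 measured, 17 were over 4-fold higher inside and 0 outside, where 18.7% and 39.8% of all genes were. Their median was -4.24 (-5.02 against late samples). CycB, the mitotic cyclin, ran from 533 through 1278 to 2679 cpm inside and from 9.89 through 24.2 to 243 outside, without overlap. plu, which restrains DNA replication in the egg before fertilization, had 123, 532 and 1293 cpm inside and 4.65, 7.23 and 75.0 outside. polo, a mitotic kinase, had medians of 725 and 23.6 cpm, with overlapping ranges. wisp, the poly(A) polymerase that lengthens the tails of stored messages at egg activation, ran from 41.4 through 152 to 929 cpm inside and from 0 through 2.15 to 30.97 outside. mei-S332, the guardian of cohesion at meiotic centromeres, ran from 43.1 through 335 to 694.5 cpm inside and from 1.10 through 4.98 to 145.7 outside, and lay wholly above the late samples at a log2 fold change of -6.31.

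Replication genes split. Mcm7, a subunit of the replicative helicase, ran from 163 through 445 to 931 cpm inside and from 7.20 through 18.1 to 92.5 outside. geminin, the inhibitor of origin licensing, had medians of 5031 and 149 cpm, and dup, the licensing factor it binds, ran from 211 to 1381 cpm inside and from 0.899 to 168 outside. PCNA, the clamp of the replication fork, had medians of 183 and 44.9 cpm and a log2 fold change of -0.06 that became -2.51 once the 2 samples apart were left out, as those 2 had 1260 and 1294 cpm. In the list of 16, 5 were over 4-fold higher inside and 2 outside, where 18.7% and 39.8% of all genes were. With the late samples the counts were 9 and 0 of 15.

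A late sample of library E2, the one with the lowest Dimension 1 among the 12 (0.159), held transcripts of both kinds. Its egg activation list summed to 1276 cpm, where the other late samples reached at most 316 and the lowest inside sample had 2767. It gave the highest outside values of CycB (243 cpm), swa (39 cpm) and wisp (30.97 cpm), and a bcd level of 38.4 cpm. Its muscle list summed to 51880 cpm and its Mlc2 level was 16000 cpm, within the late range. This sample limits the count of genes wholly higher inside, since without it, a choice made after seeing the data, 189 genes in place of 119 lay above all other late samples. Why it holds both sets was not tested.

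By the rule of largest change without overlap, the other genes higher inside were mdlc, squ, TMEM216, Surf6, rpk and Hat1. Surf6, a nucleolar protein, ran from 598 through 1913 to 2666 cpm inside and from 29.1 through 42.99 to 315 outside. squ, a germline gene of the piRNA pathway, had 148 through 460 to 999.5 cpm inside and 2.10 through 8.17 to 46.2 outside. Hat1, a histone acetyltransferase, ran from 83.2 through 229 to 610 cpm inside and from 0 through 2.37 to 53.1 outside. rpk, an ion channel subunit, had medians of 143 and 3.91 cpm, and TMEM216, a transition zone protein of cilia, 257 and 5.68 cpm.

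Genes of differentiated larval tissues were higher outside. Of 25 genes of the contractile apparatus, 22 were over 4-fold higher outside and 0 inside, where 39.8% and 18.7% of all genes were. Their median was 3.17. Once only the late samples were used, 13 lay wholly above the inside samples, where 4.62% of all genes did. Mlc2 (FBgn0002773, 3R:30171438-30174551), the regulatory light chain of muscle myosin, ran from 59.9 through 348 to 2393 cpm inside. Outside it ran from 309 through 11950 to 23140 cpm, with 5797 as the lowest late value. Tm2, a muscle tropomyosin, had 16.6, 166 and 708 cpm inside and a median of 3127 outside, and the lowest late sample had 1955. In whole eggs, fewer cells of a type cannot be told apart from less RNA per cell.

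**Figure D2:**
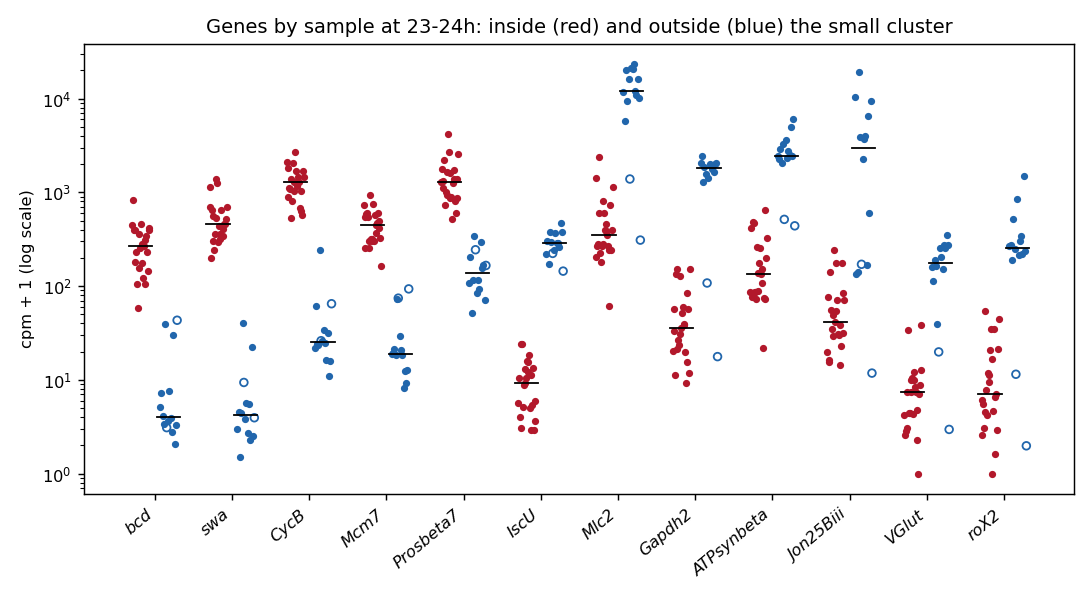
Each point is a 23-24h sample, inside the small cluster in red (n = 23) and outside in blue (n = 14, the 2 that stand apart as open circles), the vertical axis is cpm + 1 on a log scale and the black bars are medians. The 5 genes on the left are higher inside, with bcd at a median of 264 against 3.00 cpm, and the 7 on the right are higher outside, where the open circles lie no higher than the highest inside point for all but IscU.

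The nervous system and the gut followed. Of 24 neuronal genes 21 were over 4-fold higher outside and 0 inside (median 3.46), where 39.8% and 18.7% of all genes were. VGlut, the vesicular glutamate transporter of motor neurons, ran from 0 through 6.42 to 37.7 cpm inside and from 1.97 through 174 to 351.5 outside, with 38.5 in the lowest late sample. Syx1A, a syntaxin of synaptic release that also acts in other membrane fusion, was an exception, with a median of 70.8 cpm inside and 52.8 outside. Of 35 digestive enzymes 34 were over 4-fold higher outside, the list with the highest median (4.48). Jon25Biii, a gut serine protease, ran from 13.4 through 40.1 to 241 cpm inside and from 10.8 through 2982 to 19410 outside. The late samples themselves ran from 133 to 19410 cpm for this gene, so they overlapped the inside samples. The Jonah proteases are close paralogues, and counts of single members can be shared.

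Cuticle and tanning genes were less uniform. Of 111 cuticle protein genes 68 passed the filter. Of these 36 were over 4-fold higher outside and 0 inside, where 39.8% and 18.7% of all genes were. Their median of 2.28, beside 1.197 for all genes, was 0.39 on the quantile-normalized scale, where all genes stood at 0.22. Lcp65Ag3, a larval cuticle protein of a family with near-identical copies, ran from 17.8 through 67.4 to 394 cpm inside, and its lowest late value was 410. Of 9 chitin and tanning genes 7 were over 4-fold higher outside (median 2.85). ple, the tyrosine hydroxylase that starts cuticle tanning, ran from 0 through 0.669 to 6.16 cpm inside and from 0 through 49.4 to 367.5 outside. Of 6 Osiris genes, whose burst accompanies cuticle formation earlier in embryogenesis, 1 was over 4-fold higher outside, and the median of 0.32 stood below that of all genes. Osi7 had medians of 8.38 and 13.4 cpm, but a log2 fold change of -0.25.

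Blood cell and immune lists also stood higher outside. Of 11 hemocyte genes 8 were over 4-fold higher outside and 1 inside (median 2.45). Col4a1, a chain of collagen IV secreted by hemocytes and fat body, ran from 4.46 through 36.3 to 173 cpm inside and from 37.8 through 466.2 to 979 outside, with 209 as the lowest late value. Of 14 antimicrobial peptide genes only 5 passed the filter of a mean of 1 cpm, and all 5 were over 4-fold higher outside. Dro had a mean of 0.131 cpm inside and 32.7 outside, and AttB 0.165 and 11.1. Such genes passed only through the outside group, so the filter itself favours this direction. Drs, encoding drosomycin, had medians of 0.713 and 62.5 cpm, with a highest inside value of 77.3. Of 7 fat body and hemolymph genes 3 were over 4-fold higher outside, where 39.8% of all genes were. Their median was 1.17 beside 1.197 for all genes. Fer1HCH, a ferritin subunit, had medians of 1560 cpm inside and 1148 outside.

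Nuclear and mitochondrially encoded genes of energy metabolism had different medians. Of 63 nuclear genes of oxidative phosphorylation 23 were over 4-fold higher outside and 0 inside, a share close to the 39.8% of all genes higher outside, at a median of 1.67 beside 1.197 for all genes. With the late samples 32 lay wholly higher outside, where 4.62% of all genes did. ATPsynbeta, the catalytic subunit of the ATP synthase, ran from 21.0 through 134 to 653 cpm inside and from 439 through 2472 to 6076 outside, and the lowest late sample had 2040. Summed over the list, inside samples had 5269 to 18010 cpm and late samples 40800 or more. The 13 genes encoded in the mitochondrion had a median of 0.02, below that of all genes, with 0 over 4-fold higher outside. Within them mt:ATPase6 ran from 14750 through 30910 to 78460 cpm inside and from 6330 through 9288 to 20160 outside. mt:CoII had medians of 6236 and 22340 cpm, but a log2 fold change of 0.58, below that of all genes. Mitochondrial messages are cut from long transcripts and neighbouring genes touch, so single members can share reads. Of 13 glycolytic genes 10 were over 4-fold higher outside (median 3.55). Gapdh2, a glyceraldehyde-3-phosphate dehydrogenase, ran from 8.28 through 35.1 to 151 cpm inside, and the lowest late sample had 1275. Ald1, the aldolase, had medians of 1237 and 1631 cpm, but a log2 fold change of -0.30.

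Protein synthesis and breakdown genes stayed present in both groups. Summed, the 83 cytoplasmic ribosomal protein genes took a median of 301400 cpm inside and 196000 outside. For the 81 that passed the filter the median log2 fold change was -0.75. Against the late samples it was -1.34, with 12 over 4-fold higher inside and 1 outside. With median-of-ratios size factors the -0.75 became 0.38, beside 2.46 for all genes. RpL27A ran from 15510 through 24960 to 37320 cpm inside and had a median of 7799 outside. Of 31 proteasome genes 7 were over 4-fold higher inside and 5 outside, where 18.7% and 39.8% of all genes were. Their median was 0.09. Prosbeta7, a subunit of the core particle, ran from 515 through 1288 to 4191 cpm inside and from 50.6 through 136 to 338 outside. Prosbeta5, a catalytic subunit, lay wholly higher inside as well.

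Of the apoptosis genes, 5 of 10 were over 4-fold higher outside and 3 inside, where 39.8% and 18.7% of all genes were. Against the late samples the counts were 1 and 3 of 8, beside 41.2% and 20.1% of all genes. The list median was 1.02 with all outside samples and -1.44 with the late ones, beside 1.197 and 1.257 for all genes. The 3 caspases of the naming rule, which takes the highest levels, were higher inside, and no member over 4-fold higher outside is named. Drice, an effector caspase, ran from 9.24 through 279 to 464 cpm inside and from 1.27 through 27.1 to 88.95 outside. Drep1, the inhibitor of the caspase-activated nuclease, ran from 68.4 through 272 to 476 cpm inside and from 1.27 through 3.58 to 40.2 outside. Of 8 heat shock genes 4 were over 4-fold higher outside and 2 inside, again beside 39.8% and 18.7% of all genes. Hsp83 had medians of 25.6 cpm inside and 211 outside, and Hsp23 of 315 and 62.0.

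**Figure D3:**
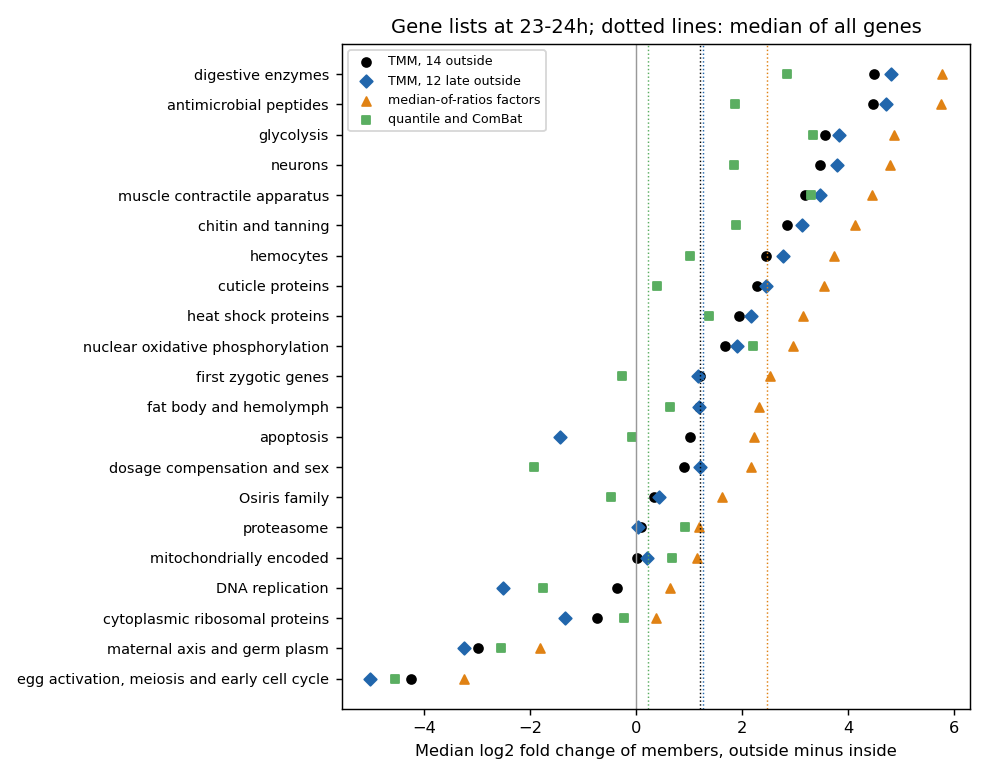
Each symbol is the median log2 fold change, outside minus inside at 23-24h, over the members of a gene list that passed the filter, for 4 ways of scaling or choosing samples; dotted lines are the medians of all genes (1.197 for TMM with 14 outside samples, 2.46 for median-of-ratios factors, 0.22 for the quantile scale). The lists of maternal and egg activation genes lie below 0 and the lists of muscle, neurons, glycolysis and digestive enzymes right of the dotted line under each scaling, while apoptosis, DNA replication and ribosomal proteins change side of 0.

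In 28 genes the outside range lay wholly above the inside range, the 2 samples apart included. Those of the naming rule were IscU, Tep4, CG9410, Tsp42El, Tmep, Hmgs, CG10340, nrv2, CG32280 and lbm. IscU (FBgn0037637, 3R:8822849-8824177), the scaffold on which iron-sulphur clusters are built, ran from 1.91 through 8.23 to 23.2 cpm inside and from 144 through 285 to 476 outside. The samples apart had 223 and 144 cpm, and the lowest late sample had 171. Tep4, a thioester protein of the immune system, had medians of 2.36 and 78.4 cpm. Hmgs, an enzyme of the mevalonate pathway, had 4.53 and 71.9 cpm. nrv2, a sodium pump subunit, had 24.7 and 693.5 cpm. lbm, a tetraspanin of growing motor axons, had 5.14 and 112 cpm.

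With the late samples alone the largest differences without overlap, a set added after seeing the data, were Bbd, CG16799, yellow-f, CG31769, CG13947, CG43680, Cpr47Eb, CG5550, Elal and igl. Bbd ran from 0 through 1.03 to 5.14 cpm inside and from 6.34 to 2848 in late samples, with a median of 259. yellow-f, a member of the yellow family that acts in pigment formation, had a highest inside value of 3.04 cpm and a lowest late value of 10.8. Cpr47Eb, a chitin-binding cuticle protein, had 7.72 and 40.01 cpm in those positions.

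The non-coding RNAs roX1 and roX2, which with the MSL proteins raise transcription of the male X, were low inside. roX2 ran from 0 through 6.16 to 53.0 cpm inside and from 0.984 through 257 to 1491 outside. All 12 late samples had at least 187 cpm. roX1 had medians of 5.70 and 132 cpm, with highest inside and lowest late values of 33.1 and 40.3. msl-1, which encodes a scaffold of the same complex and is also supplied maternally, went the other way with 128 cpm inside and 7.25 outside. The sex of the samples was not read from these values.

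The earliest zygotic genes, switched on before gastrulation, were close to all genes in their fold changes. Of 11 measured, 2 were over 4-fold higher outside and 1 inside, where 39.8% and 18.7% of all genes were, and the list's median was 1.2 beside 1.197. Their summed level ran from 4.15 through 15.4 to 243 cpm inside and from 67.5 through 134 to 403 outside. h, a pair-rule repressor used again in later tissues, had 1.43 cpm inside and 70.8 outside at the median. Kr, a gap gene, had 1.27 and 7.34 cpm. The highest inside sum, 243 cpm, belonged to the shallowest inside sample, from library E3, whose mitochondrial share of 28.9% was also the highest. Its sog level of 129 cpm stood beside an inside median of 0.645.

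Low counts of late genes inside did not all stand at 0. The muscle list summed to 731 through 2111 to 8311 cpm inside, and 13 of the 23 samples were above the highest of the 25 inside samples of 2-3h, at 2012 cpm. The highest inside sample had 41.9% of the lowest late sample and the median inside sample 4.93% of the median late one. For digestive enzymes 6 of 23 were above and 5 below the 2-3h range, and for neurons 1 was above and 0 below. In BRB-seq, samples are pooled after barcoding, and transfer of reads between barcodes of a pool was not tested.

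The age label could be tested within the cluster, since the rule did not use it there. Over 7774 genes, 1415 (18.2%) were higher and 2134 (27.5%) lower at 23-24h than at 2-3h, by edgeR's quasi-likelihood test with library as covariate, at an adjusted p under 0.05 and a change over 2-fold. The median log2 change of all genes was -0.18. Of the 25 inside samples at 2-3h, 11 held zygotic transcripts, with the earliest zygotic genes summing to 449 to 1781 cpm, and the other 14 had at most 98.6. Without these 11, 1218 genes (15.9%) were higher and 1810 (23.6%) lower of 7665. Against the 10 inside samples of 5-6h, none of which reached that level, 346 (4.64%) were higher and 687 (9.21%) lower of 7461. In all 3 comparisons 321 genes were higher and 556 lower; the 3 share the 23 samples of 23-24h. The labels do not say which samples came from separate cages, so p-values measure the spread between these eggs.

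Nuclear genes of oxidative phosphorylation fell inside the cluster. Of 62 tested, 48 were lower and 0 higher than at 2-3h, with a median of -1.98 (46 and 2 without the 11 samples, median -1.78; 40 and 0 against 5-6h, median -1.70). The list summed to 32310 through 41980 to 52250 cpm at 2-3h and to 5269 through 11290 to 18010 at 23-24h, and all 23 old samples were below the lowest young one. COX5B, a subunit of cytochrome c oxidase, fell by 2.04 on the log2 scale (SE 0.18, edgeR adjusted p = 5.85e-14), from a median of 2216 to 487 cpm, and by 2.20 against 5-6h (adjusted p = 2.03e-08). ATPsynbeta fell by 2.05 (SE 0.29, adjusted p = 6.54e-08) against 2-3h, whereas against 5-6h its change was 0.35 (adjusted p = 0.595). Inside medians of the summed list went from 41980 cpm at 2-3h through 40150, 34040, 24580, 17240, 10360 and 11390 to 11290 at 23-24h, while outside the cluster they were 42930 at 2-3h and 54840 at 23-24h. The mitochondrially encoded genes had 2 higher and 2 lower of 13, where 18.2% and 27.5% of all genes were. mt:ATPase6 rose by a log2 of 1.88 (SE 0.19, adjusted p = 5.38e-12).

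**Figure D4:**
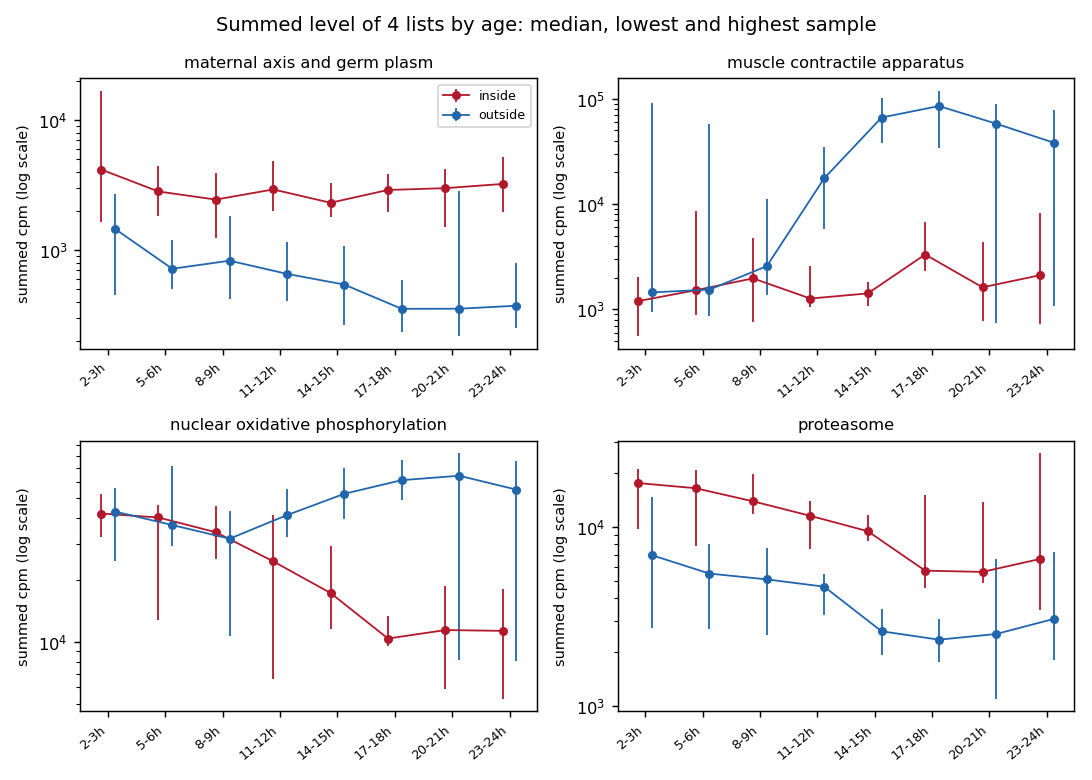
Points are the median summed cpm of a list at each age, on a log axis, and bars run from the lowest to the highest sample, inside the small cluster in red and outside in blue. Inside, nuclear oxidative phosphorylation goes from 41980 to 11290 cpm and the proteasome list from 17600 to 6636 cpm between 2-3h and 23-24h, while the muscle list reaches at most 8628 cpm in an inside sample.

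Proteasome genes moved the same way. Of 31 tested, 20 were lower and 0 higher at 23-24h than at 2-3h (19 and 1 without the 11 samples, 10 and 0 against 5-6h). The list summed to 9790 through 17600 to 20950 cpm at 2-3h and 3462 through 6636 to 25760 at 23-24h, and 21 of the 23 old samples were below the young range and 1 above it. The members with the highest level were exceptions, since Prosbeta5 did not pass (log2 change -0.04, adjusted p = 0.917) and Prosbeta7 had a change of 0.77 (adjusted p = 0.00363), under 2-fold. PCNA fell by 2.16 (SE 0.26, adjusted p = 1.32e-09), from 995 to 183 cpm at the median, and by 1.83 against 5-6h (adjusted p = 9.14e-05). Of the 16 replication genes 7 were lower and 3 higher, where 27.5% and 18.2% of all genes were. The 3 included Mcm7, which rose by a log2 of 2.26 (SE 0.21, adjusted p = 3.74e-13), and geminin, at 2.16 (SE 0.23, adjusted p = 1.42e-11).

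Maternal regulators went both ways with age, as all genes did. Of 21 tested, 6 were higher and 5 lower at 23-24h, where 18.2% and 27.5% of all genes were. bcd rose by 1.82 (SE 0.42, adjusted p = 0.00033), by 1.19 without the 11 samples (adjusted p = 8.4e-05), and its 0.36 against 5-6h did not pass (adjusted p = 0.401). swa rose by 2.02 (SE 0.37, adjusted p = 1.18e-05) and by 1.28 against 5-6h (adjusted p = 0.00344). me31B fell by 1.28 (SE 0.23, adjusted p = 7.85e-06), from a median of 3054 cpm to 1130, and its -0.58 against 5-6h did not pass (adjusted p = 0.123). osk did not pass, at -1.15 (adjusted p = 0.148), but did without the 11 samples, at -1.92 (adjusted p = 0.0245). nos did not pass, at -1.30 (adjusted p = 0.226). Of 21 genes of egg activation and the early cell cycle 10 were higher and 5 lower. Of the apoptosis genes 2 of 10 were higher and 2 lower, where 18.2% and 27.5% of all genes were, and the higher ones included Drice, which rose by 1.91 (SE 0.30, adjusted p = 4.92e-07) and by 1.16 against 5-6h (adjusted p = 0.0193). All levels are shares of a library, and absolute amounts were not measured.

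Late genes showed a small rise inside. Of 24 muscle genes 14 were higher and 0 lower than at 2-3h, with a median of 1.12, and against 5-6h 1 was higher and 1 lower. Mlc2 rose by 1.31 (SE 0.26, adjusted p = 2.77e-05), from a median of 213 to 348 cpm, and its 0.72 against 5-6h did not pass (adjusted p = 0.185). Of 25 digestive enzymes 12 were higher and 1 lower, and against 5-6h 0 and 1 of 28. The cuticle list had 13 higher and 0 lower of 51, beside 18.2% and 27.5% of all genes, and against 5-6h 0 and 0 of 55.

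The genes with the largest rise at 50 cpm or more were Trf, CG5773, l(1)10Bb, c12.1, Septin2 and CG17361. Trf (FBgn0010287, 2L:8072895-8073948), a relative of the TATA-binding protein, rose by a log2 of 3.16 (SE 0.26, edgeR adjusted p = 7.42e-15), from 57.6 to 415 cpm at the median, and by 1.73 against 5-6h (adjusted p = 0.000601). l(1)10Bb went from a median of 174 to 1098 cpm, c12.1 from 169 to 960, Septin2, a filament-forming GTPase, from 78.2 to 396, and CG17361 from 62.6 to 336. CG5773 rested on few samples, with medians of 6.60 and 9.54 cpm and a highest value of 791 at 23-24h, and did not pass against 5-6h (adjusted p = 0.0615). Each of the other 5 had its lowest 23-24h value below the 2-3h median, so the groups overlapped.

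The largest falls were srw, Elba3, Bro, Elba1, dunk and CG6885, which were high only in some of the 2-3h samples. Elba1, a subunit of an early insulator complex, had a log2 change of -7.47 (SE 1.12, adjusted p = 1.72e-07), with a median of 8.53 and a highest value of 5019 cpm at 2-3h. Without the 11 samples its change was 0.63 (adjusted p = 0.54) and its highest 2-3h value 21.99 cpm. Bro, a partner of the Runt protein, went from -7.47 (adjusted p = 1.21e-07) to -0.29 (adjusted p = 0.822) in the same way, and dunk from -7.23 (adjusted p = 4.15e-07) to 0.03 (adjusted p = 0.985). Of the 16 earliest zygotic genes 15 were lower and 0 higher, beside 27.5% and 18.2% of all genes. Without the 11 samples, which were left out for their level of these same genes, 0 of 9 were lower and 2 higher.

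Without those samples, a set added after seeing the data, the largest falls were zpg, CG11674, CG32243, CG7943, Gmer and jtb. CG11674 (FBgn0030551, X:14224647-14225879) fell by 5.68 (SE 0.54, adjusted p = 3.49e-11) and by 4.82 against 5-6h (adjusted p = 5.97e-07). It ran from 79.2 through 352 to 1631 cpm in the 25 young samples, had a median of 396 at 5-6h and ran from 0 through 3.74 to 66.3 at 23-24h, without overlap between 2-3h and 23-24h. Gmer, an enzyme of GDP-fucose synthesis, fell by 5.31 (SE 0.56, adjusted p = 2.9e-10) and by 2.84 against 5-6h (adjusted p = 0.00144). zpg, a germline gap junction protein, fell by 5.76 (SE 0.84, adjusted p = 3.3e-07) but was already at a median of 0.544 cpm at 5-6h (change 0.43, adjusted p = 0.848), and jtb at 1.53 cpm.

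**Figure D5:**
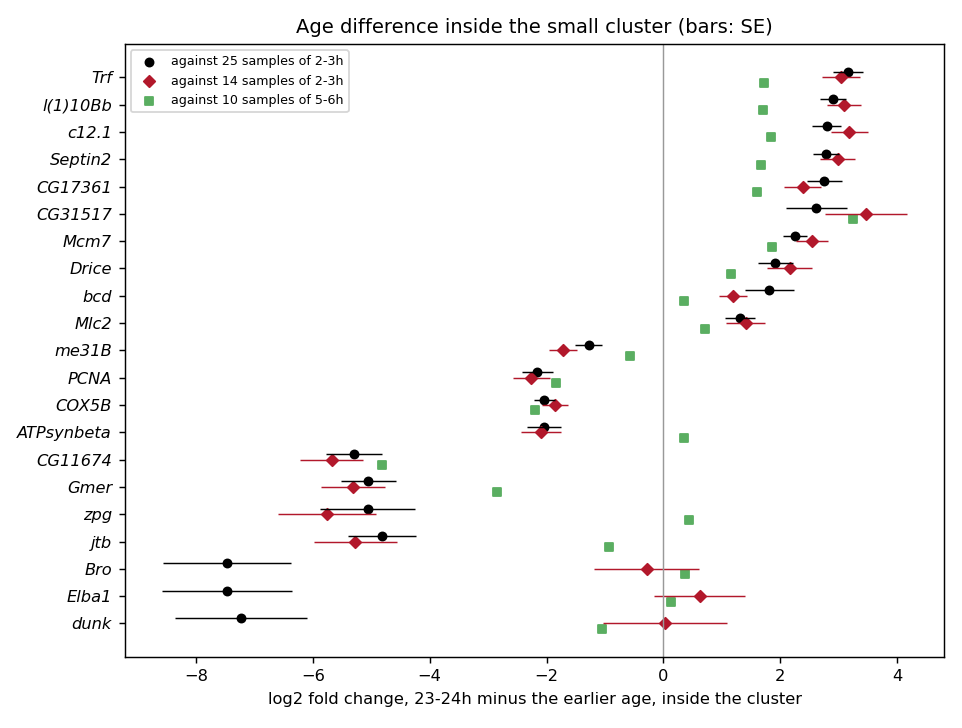
Symbols are log2 fold changes at 23-24h inside the small cluster (n = 23) against inside samples of an earlier age, with SE bars for both comparisons with 2-3h and none drawn for 5-6h. Trf at 3.16 and CG11674 at -5.30 keep their direction against each reference, whereas Bro, Elba1 and dunk lie at -7.47, -7.47 and -7.23 against all 25 samples of 2-3h and between -0.29 and 0.63 against the 14 without zygotic transcripts.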

How the data were processed

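Single eggs were profiled by BRB-seq, which barcodes each RNA and reads 3′ ends after pooling. Per the labels and methods the authors aligned reads with STAR to BDGP6 (Ensembl 91) and deposited raw counts per gene from HTSeq, without normalization. Totals of 23-24h samples on protein-coding genes ran from 323298 to 11331708, and precision at low genes follows depth. Genes annotated as protein-coding or ncRNA in Ensembl 115 were used, 16550 of 17698, which left out 3.74% of counts; 17560 IDs matched. The scaling used limma 3.58.1 and sva 3.50.0 in R 4.3.3. Fold changes and age tests used edgeR 4.0.16 (TMM, quasi-likelihood, library covariate, Benjamini-Hochberg) on genes with a mean above 1 cpm; DESeq2 1.42.0 was an alternative. Scripts were tested on simulated data. Groups came from titles. The members, lists and tests were chosen with earlier results of these data known. Named genes were the 3 highest of each list, the 10 most different without overlap at 50 cpm or more, the 6 largest age changes each way, and bcd, nos, osk, roX1 and roX2. Some genes, mei-S332, dup and Drep1 among them, were named outside these rules, as were the sets marked as added after seeing the data. No pair of samples was identical. Alternatives covered scaling, filters, depth, distance, libraries and samples.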

Additional observations from a re-analysis of the deposited data

Results flagged for a closer look

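Counts on rRNA-annotated genes, which entered no comparison, took a median of 3.71% of all counts inside the small cluster at 23-24h (2.16 to 9.28) and 1.43% outside (0.513 to 9.89). Within library E2 the medians were 3.27% and 1.13%, and within E3 4.69% and 1.90%. Their part in the levels was not tested.

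Groups of 4 to 10 samples were examined for a sample far from the rest, each on several measures. Of 12 such checks 3 flagged a sample, where chance gives about 1 in 20. Checks of the same group shared its samples. In the 6 inside samples of library E3, the same sample had a mitochondrial share of 28.9% and a summed level of the earliest zygotic genes of 243 cpm. In the 5 outside samples of E3, 1 had a summed roX level of 1848 cpm.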

How the results depend on the processing

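No paired analysis was possible because the titles carry library and well positions and no replicate numbers shared between groups. Among genes over 4-fold different, the count higher inside was 787 with median-of-ratios size factors and 1136 after thinning to 300000 counts, against 1744, and the count higher outside was 1703 on the quantile-normalized scale, against 3718. On that scale 6 lists had a median past 4-fold, against 10, and Osi2 turned to -0.33. The other alternatives left these counts within 1.5 times. For age inside the cluster, against 1415 higher and 2134 lower, library E1_2 alone gave 13 and 68, E2 alone 843 and 1393, E3 alone 633 and 1098, and 5-6h as the reference 346 and 687; these use fewer samples. Library E1_1, with 1 inside sample at 23-24h, was not run alone. Without 2-3h samples holding zygotic transcripts, chosen after seeing the data, Elba1 was at 0.63 and dunk at 0.032, and against 5-6h Bro was at 0.38, Elba1 at 0.13 and zpg at 0.43. The share inside at 23-24h exceeded that of 5-6h, 8-9h, 14-15h, 17-18h and 20-21h by 21.6, 13.6, 16.2, 34.1 and 25.8 percentage points within E2. Within E3 the differences were 32.3, 34.5, 29.6, 54.5 and 25.97, where the 54.5 rests on 1 sample of 17-18h. None passed the threshold with fewer samples. Depth limits genes near 1 cpm, which in the shallowest sample is under 1 count.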
